A study of Nasonia vitripennis x Nasonia giraulti with 2 samples.

Results

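Long methylated stretches were runs of highly methylated CpGs spanning 610 to 6101 bp, most of them with less methylated CpGs in between. They were found in F1 hybrid females of the parasitoid wasps Nasonia vitripennis (Nv) and Nasonia giraulti (Ng). A CpG entered a run when its total methylation level, the share of unconverted reads summed over both libraries, was at least 50%. A run ended where the next such CpG on the scaffold lay more than 1000 bp away, and CpGs below 50% did not end it. Of 5548 runs found in this way, 142 (2.56%) held 20 or more CpGs, and these are the long stretches described here. They contained 3455 of the 38350 CpGs of at least 50% (9.01%), on 60 scaffolds, and their spans added up to 317529 bp. Because the stretches were selected on their measured levels, their number, length, spacing and level are descriptions and were not tested.

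The measurements came from whole-genome bisulfite sequencing (WGBS-seq), in which unmethylated cytosines are read as T and methylated ones as C. F1VG daughters had an Nv mother (strain AsymCX) and an Ng father (strain R16A), and in F1GV daughters the same strains were crossed the other way, with Ng as the mother. Each cross was represented by 1 library made from the whole bodies of 50 pooled females 24 h after eclosion, so every level is an average over all tissues and individuals of the pool, and no spread between replicates can be given. A test between the V and G alleles within a library covers counting error only, and a test between F1VG and F1GV compares 2 libraries, not the crosses, since library and cross cannot be told apart.

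In animals, methyl groups are placed on CpG cytosines by DNA methyltransferases, one of which copies the pattern to the daughter strand after replication. In Hymenoptera such as Nasonia the mark is sparse and concentrated in exons of a subset of genes, many of them broadly expressed, so that methylated CpGs occur in clusters separated by long unmethylated tracts. In mammals and plants methylation is also known to vary with the position of nucleosomes. Positions below are on scaffolds of the Nv v1.0 assembly, and no annotation of that assembly was used, so the stretches are named by scaffold and position and not by gene.

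In all, 5531492 CpGs on 2683 scaffolds were listed in both libraries, each with at least 8 reads of the V allele and 8 of the G allele, and the median depth per CpG was 47 reads in F1VG and 55 in F1GV. Only 0.693% of these CpGs reached 50%. CpGs of the long stretches had a median of 56 reads in F1VG, 22 of them assigned to V and 21 to G, and of 70 reads in F1GV, 27 for each allele.

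The typical long stretch was about 2 kb long and held 23 CpGs. The number of CpGs of at least 50% ranged from 20 to 43 (quartiles 21 and 26). Spans ran from 610 to 6101 bp, with a median of 2015.5 bp and quartiles of 1367.75 and 2879.25 bp. In 128 stretches the span was over 1000 bp, in 33 over 3000 bp and in 5 over 5000 bp. The number of CpGs and the span were only loosely related (Spearman rho 0.174 over the 142 stretches, all at the threshold of 20 or above), so that a stretch with few CpGs could be long. Just inside the threshold, the 30 stretches of 20 CpGs had a median span of 2017 bp and a median level of 80.8%, and just outside it the 34 stretches of 19 CpGs had a median span of 1628.5 bp and a median level of 81.1%.

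**Figure D1:**
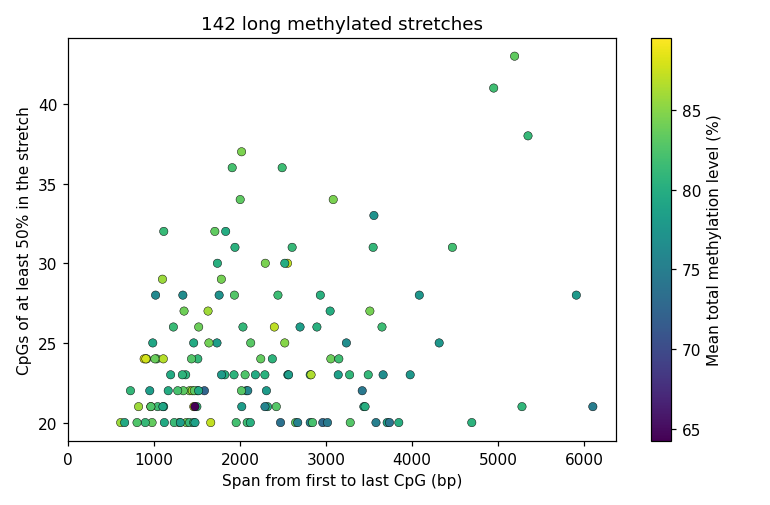
Span in bp (x axis) against the number of CpGs of at least 50% (y axis) for each of the 142 long stretches, coloured by mean total methylation level in percent. Spans lie between 610 and 6101 bp, and the 3 stretches with the most CpGs (43, 41 and 38) are all about 5 kb long.

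The longest list of CpGs belonged to a stretch on SCAFFOLD10 from 252673 to 257863, with 43 CpGs over 5191 bp and a mean level of 83.4% ± 14.1 (SD over its CpGs). A stretch on SCAFFOLD4 from 4938177 to 4943124 held 41 CpGs over 4948 bp, and one on SCAFFOLD23 from 2139967 to 2145313 held 38 over 5347 bp. More compact were the stretches on SCAFFOLD16 from 163827 to 165842 (37 CpGs in 2016 bp), on SCAFFOLD8 from 797922 to 799828 (36 in 1907 bp) and on SCAFFOLD16 from 520678 to 522677 (34 in 2000 bp), and in each of these only 1 listed CpG within the span was below 50%. The other 4 of the 10 stretches richest in CpGs were on SCAFFOLD4 from 4079880 to 4082367 (36 CpGs), on SCAFFOLD10 from 2913516 to 2916597 (34), on SCAFFOLD204 from 233273 to 236827 (33) and on SCAFFOLD14 from 2990389 to 2992219 (32). Their mean levels were close to one another, between 77.1% on SCAFFOLD204 and 84.6% for the first SCAFFOLD16 stretch. The shortest span, on SCAFFOLD12 from 2080431 to 2081040, packed 20 CpGs into 610 bp with no CpG below 50%, whereas the longest, on SCAFFOLD31 from 497838 to 503938, spread 21 over 6101 bp, with 26 further CpGs below 50% between them.

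Long stretches were unevenly placed. SCAFFOLD9 carried 12, SCAFFOLD4 10, SCAFFOLD16 9, SCAFFOLD1 8 and SCAFFOLD7 7. Relative to all stretches of 4 or more CpGs, of which 3.74 in 100 were long, the share was 9.84 in 100 on SCAFFOLD9 and 2.97 in 100 on SCAFFOLD1. Neighbouring long stretches of 1 scaffold were usually far apart, with a median distance of 270374 bp over 82 pairs, and 3 of these pairs lay within 10000 bp. Smaller stretches were closer by, since 68 of the 142 had another stretch of 4 or more CpGs within 5000 bp.

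Successive CpGs of at least 50% were a median of 41 bp apart in the long stretches (quartiles 18 and 101 bp, 3313 gaps), against 53 bp in the 3209 stretches of 5 to 19 CpGs. Of these gaps 25.1% were over 100 bp, about the length of a read, and 121 were over 500 bp. Seen per stretch, 69 of the 142 had at least 1 gap over 500 bp, and 20 had none over 200 bp. The gap limit of 1000 bp was set by the rule, and the largest gap seen was 998 bp. A gap is a distance between listed CpGs, and CpGs with fewer than 8 reads of either allele were not listed, so a gap can also hold CpGs that were not measured here.

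Methylation was not continuous within the spans. Of 4620 CpGs listed inside them, 1165 (25.2%) were below 50%, and 621 of these were below 10%. Only 8 stretches contained no CpG below 50%, and in 12 the CpGs below 50% outnumbered the others. The stretch on SCAFFOLD1 from 4160487 to 4163446 was the most extreme of the stretches named here, with 20 CpGs of at least 50% among 62 listed. Interruptions varied in size, and only the shortest and the longest are described here. Of 406 runs of CpGs below 50%, 246 were a single CpG, with a median level of 34.4%, and 56 held 5 or more CpGs, with a median level of 8.24% and a median width of 565 bp between the methylated CpGs on either side. Those 56 contained 664 of the 1165 CpGs.

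Levels of the 142 stretches, averaged over their CpGs of at least 50%, fell in a narrow band around a median of 81.0% (quartiles 79.0% and 83.2%). The spread between stretch means (SD 3.63 points) was smaller than that among the CpGs of a single stretch (median SD 12.6 points). A mean over many CpGs varies less than single CpGs do, so averaging alone lowers the spread between stretches. Whether stretches were more alike than averaging makes them was not tested. Only 31.1% of the CpGs were at 90% or more, compared with 25.7% of the 34895 CpGs of at least 50% outside the long stretches, and 9.44% lay between 50% and 60%, compared with 12.6%. At the extremes, the stretch on SCAFFOLD35 from 1405160 to 1406632 averaged 64.2% ± 9.53 over 21 CpGs (67.8% in F1VG, 61.3% in F1GV), and that on SCAFFOLD16 from 108707 to 109666 averaged 89.5% ± 6.26 over 21 CpGs (90.1% and 89.0%). The next lowest mean level after SCAFFOLD35 was 72.3%, on SCAFFOLD3 from 1967981 to 1969564.

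Along a stretch the level rose from the ends inward and then stayed flat. The outermost CpG at either end averaged 73.2% ± 14.1 (SD, n = 284 CpGs), the second 77.5% ± 13.7, the fifth 82.0% ± 11.9, and CpGs that were the 11th or deeper 83.8% (n = 615). Outside the stretch the fall was steep. Within 100 bp of the ends the mean level was 12.5% before and 10.6% after the stretch, between 100 and 200 bp it was 6.21% and 6.22%, and between 500 and 1000 bp 2.53% and 2.11%. Here the rule left no CpG of 50% or more within 1000 bp, so the contrast at the border was partly imposed, and the flank values describe CpGs that were all below 50%.

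**Figure D2:**
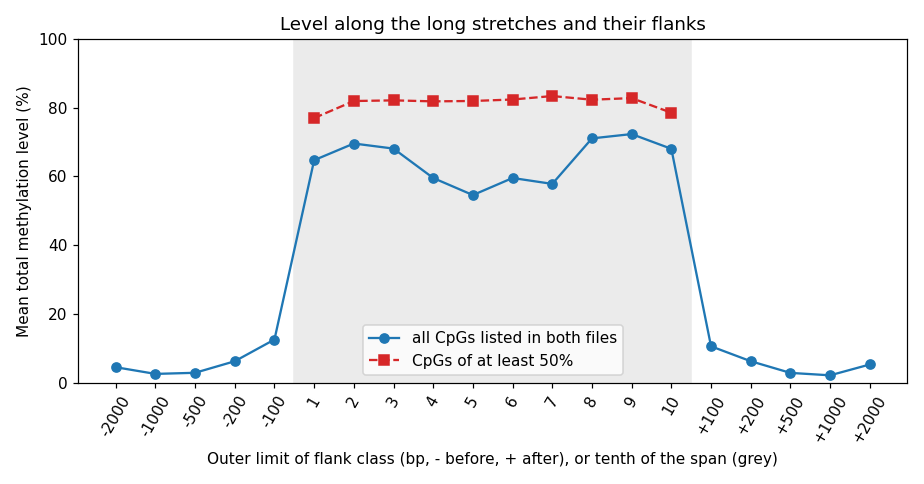
Mean total methylation level in percent (y axis) in 10 equal parts of the span, numbered from the left (grey) and in flank classes on either side, labelled by their outer limit in bp (x axis), over the 142 long stretches. CpGs of at least 50% (red squares) stay near 82% with lower ends, whereas all listed CpGs (blue circles) dip to 54.6% in part 5, and flanks fall to 2.11% to 12.5% within 1000 bp.

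When every listed CpG of the span was averaged, the profile dipped in the middle. From first to last, 10 equal parts of the span averaged 64.7%, 69.6%, 68.1%, 59.5%, 54.6%, 59.5%, 57.8%, 71.0%, 72.3% and 68.0%. The dip followed the share of CpGs below 50%, which was 39.0% in part 5 and 16.2% in part 9. CpGs of at least 50% showed no such dip and averaged 81.8% to 83.4% from part 2 to part 9. Both ends of a span are methylated by construction, which alone raises the outer parts.

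Neighbouring CpGs resembled each other over a short distance only. To avoid shared reads, the level of a CpG in F1VG was compared with that of its neighbour in F1GV, each taken as the deviation from its stretch mean. Over all listed CpGs the correlation was r = 0.923 for the same CpG in both libraries (4620 CpGs), 0.799 for pairs up to 10 bp apart (959 pairs), 0.614 over 10 to 50 bp (4048), 0.388 over 50 to 100 bp (4344), 0.363 over 100 to 200 bp (7220) and 0.101 over 200 to 500 bp (17320). At 500 to 1000 bp it was -0.223. Subtracting the stretch mean pushes distant pairs below 0, pairs share CpGs, and depth differs from CpG to CpG, so these values describe the data and carry no p. Within single libraries the values were nearly the same (0.624 in F1VG and 0.630 in F1GV over 10 to 50 bp).

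The correlation was much lower once CpGs below 50% were left out. Among CpGs of at least 50% alone, r was 0.678 for the same CpG (3455 CpGs) but 0.227 up to 10 bp, 0.126 over 10 to 50 bp, -0.059 over 50 to 100 bp and 0.036 over 100 to 200 bp. Leaving out CpGs below 50% cuts the range of levels, which by itself lowers r, also for the same CpG. Within that range, r between the libraries was higher for the same CpG than for pairs of CpGs in any distance class.

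In classes of 20 bp, a width chosen after seeing the data, the correlation among CpGs of at least 50% went down, up and down again. It was 0.217 up to 20 bp (1062 pairs), fell to -0.096 at 80 to 100 bp (897 pairs), rose to 0.066 at 160 to 180 bp (821), fell to -0.124 at 240 to 260 bp (728) and rose to 0.060 at 300 to 320 bp (677). In the stretches of 5 to 19 CpGs, which share no CpG with the long ones, the low points lay in the same classes (-0.174 at 80 to 100 bp and -0.165 at 240 to 260 bp) and the high points at 140 to 160 bp (0.081) and 300 to 320 bp (-0.023). The values are weak, the number of CpG pairs in a class does not count independent observations, and no cause was tested.

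**Figure D3:**
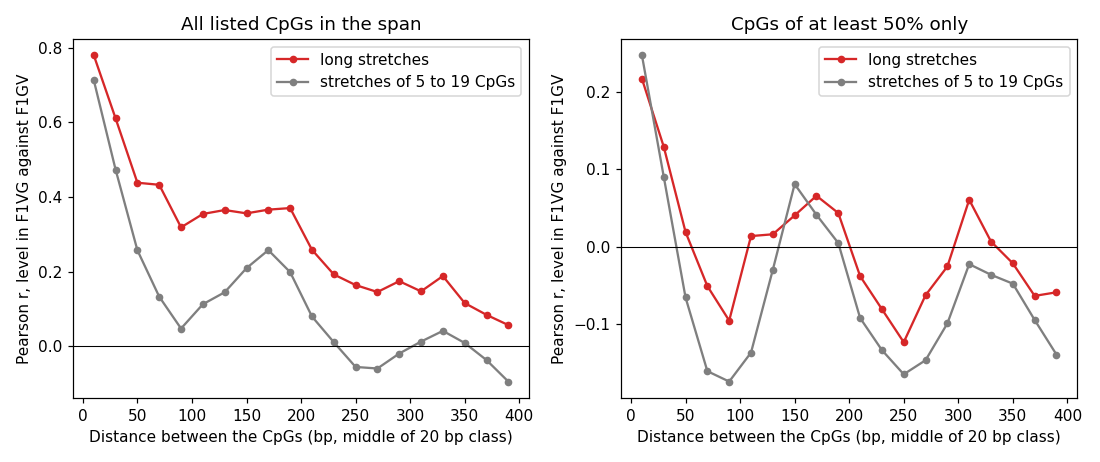
Pearson r of the level of a CpG in F1VG and of a neighbour in F1GV, as deviations from the stretch mean (y axis), by distance in classes of 20 bp (x axis, middle of the class), for the long stretches (red) and those of 5 to 19 CpGs (grey). With all listed CpGs (left) r in the long stretches falls from 0.780 to 0.319 by 80 to 100 bp. It then stays at 0.355 to 0.370 from 100 to 200 bp and is 0.259 at 200 to 220 bp. Among CpGs of at least 50% (right) both curves have low points at 80 to 100 and 240 to 260 bp.

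Allelic methylation was next compared within each library, as the V allele (Va) level minus the G allele (Ga) level. In the long stretches both alleles were highly methylated. Mean Va per stretch was 82.9% ± 4.44 and mean Ga 81.4% ± 5.03 in F1VG (SD over 142 stretches), and 82.6% ± 5.31 and 79.4% ± 5.17 in F1GV. Va minus Ga averaged 1.46 ± 5.95 percentage points in F1VG, from -16.4 to 19.02, and 3.24 ± 5.83 points in F1GV, from -19.6 to 19.9. V was above G in 81 of 142 stretches in F1VG and in 103 of 142 in F1GV. The small excess of V was not particular to the long stretches, since it was 1.78 and 2.70 points on average at the other CpGs of at least 50%.

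In no long stretch did the mean difference reach 20 points in either library, whereas 7.35% of the stretches of 5 to 19 CpGs had such a difference in at least 1 library. The same level of 50% chose the CpGs of both sets, and the shorter stretches average over fewer CpGs, with a wider spread of Va minus Ga (SD 10.8 points in F1VG, against 5.95 in the long ones). The part of the number of CpGs in this was not tested. Between the libraries the 142 differences had the same sign in 100 stretches, with r = 0.548 and Spearman rho 0.539 across stretches.

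**Figure D4:**
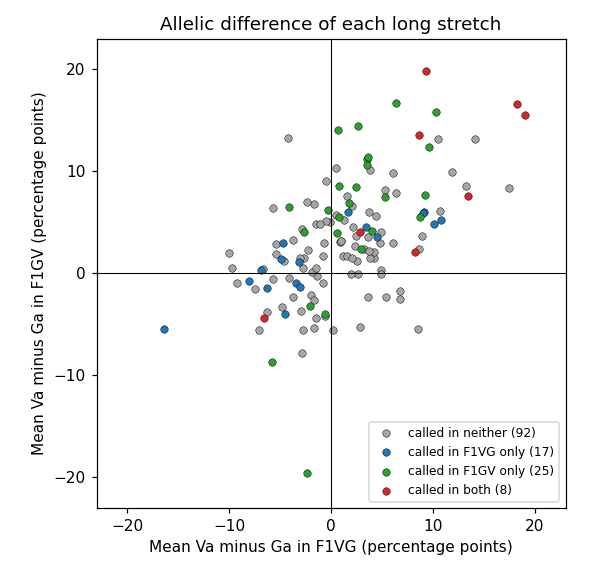
Mean Va minus Ga of each long stretch in F1VG (x axis) and F1GV (y axis), in percentage points, coloured by whether V and G differed in the Fisher's exact test. The 8 stretches called in both libraries (red) include 7 with V higher in both, and 92 stretches (grey) were called in neither.

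For a test per stretch, reads were summed over CpGs at least 110 bp apart, further than a read reaches, so that no read was counted at more than 1 CpG, and Fisher's exact test was adjusted over all 5548 stretches of any size (Benjamini-Hochberg, adjusted p under 0.05). In F1VG 25 of the 142 long stretches differed between V and G (17.6%), against a background of 16.2% of all stretches. In F1GV 33 did (23.2%, background 16.6%). V was higher in 15 of the 25 and in 26 of the 33, and in 62.7% and 69.4% of all stretches called in each library. The absolute difference of the summed levels had a median of 13.3 points in the first set and 12.7 in the second. A long stretch contributes more reads to the test than a short one, with a median of 9.5 spaced CpGs and 203 V reads in F1VG, so smaller differences can pass, and the shares were not compared further. In stretches of 5 to 19 CpGs they were 14.6% and 14.3%.

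Both libraries called 8 of the 142 long stretches (5.63%), all with the same sign, and V was higher in 7. Of all 5548 stretches, both libraries called 402 (7.25%), with V higher in both in 289 and G in 105. The largest difference in F1VG was in the 6101 bp stretch on SCAFFOLD31 from 497838, where in F1VG 83.6% of V reads (Wilson 95% confidence interval 78.9% to 87.5%, 281 reads) and 63.8% of G reads (58.2% to 69.0%, 298 reads) were methylated, with adjusted p = 2.29e-06 by Fisher's exact test. In F1GV the levels were 79.5% (74.996% to 83.4%) and 60.9% (55.8% to 65.7%), adjusted p = 1.47e-06 by the same exact test. On SCAFFOLD58 from 602357 to 603689, V and G stood at 87.0% and 70.4% in F1VG and at 86.7% and 74.0% in F1GV (adjusted p = 0.000103 and 0.000404 by the same exact test). The exception in direction was on SCAFFOLD17 from 2347973 to 2350441, where V was lower, at 71.8% against 91.5% in F1VG and 71.3% against 82.7% in F1GV (adjusted p = 6.83e-07 and 0.0128, Fisher's exact test). Of the 10 stretches richest in CpGs, the one on SCAFFOLD4 from 4938177 was called in both, with summed V and G levels of 87.0% and 72.2% in F1VG, although its mean Va minus Ga over all 41 CpGs was only 2.80 ± 18.5 points. The spaced CpGs and the full set can thus give different values for 1 stretch.

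The differences between alleles varied from CpG to CpG. Within a stretch the SD of Va minus Ga over CpGs had a median of 19.8 points in F1VG and 17.5 in F1GV, several times the mean difference. Each SD includes the counting error of single CpGs, and its share was not tested. At single CpGs, Fisher's exact test adjusted over 72225 CpGs with a level of at least 10% called 272 of 3455 in F1VG (7.87%) and 274 in F1GV (7.93%). Against this, the background over all tested CpGs was 15.4% and 18.1%, and the other CpGs of at least 50%, which share the ceiling on how far alleles can differ, were called in 8.27% and 8.71% of cases. V was the higher allele in 164 of the 272 (60.3%) and in 189 of the 274 (69.0%), compared with 65.0% and 72.5% of all tested CpGs that were called, with median absolute differences of 51.7 and 48.7 points in the long stretches.

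Both libraries called 84 of these CpGs (2.43%, against 3.50% of the other CpGs of at least 50% and 8.34% of all tested). V was higher in both libraries at 68, G in both at 14, and the direction was opposite at 2. The 82 CpGs of 1 sign lay in 53 stretches, never more than 4 in 1 stretch. They formed 65 patches of consecutive member CpGs: 54 single CpGs, 6 pairs, 4 of 3 CpGs and 1 of 4. Only CpGs with a total of at least 50% are members. A CpG methylated on 1 allele alone has a total near 50% and can be left out, so these counts and patch sizes depend on the rule. The ends were richer in CpGs called with 1 sign, as 22 of the 284 outermost CpGs (7.75%) but 3 of the 615 that were the 11th or deeper (0.488%) were of this kind. The mean total level was also lowest at the ends, and its part in this was not tested.

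The patch of 4 CpGs opened a stretch on SCAFFOLD9 from 2678252 to 2680855. At its first CpG 25 of 25 V reads and 3 of 12 G reads were methylated in F1VG, and 26 of 26 and 1 of 24 in F1GV. At 2678263 G had 0 methylated reads of 11 and 0 of 18, against 18 of 25 and 24 of 24 for V, and at 2678308, 56 bp into the stretch, G had risen to 7 of 13 and 4 of 15. Over the whole stretch of 31 CpGs the mean Va minus Ga was 14.1 ± 26.3 and 13.2 ± 34.7 points, while the spaced test called neither library (adjusted p = 0.576 and 0.336, Fisher's exact test).

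A patch of 3 closed the SCAFFOLD58 stretch. At 603608, 603680 and 603689 the V level was 81.8%, 75% and 84.2% in F1VG and 78.6%, 95.2% and 73.3% in F1GV, whereas the G level was 19.2%, 0% and 0% and then 26.9%, 5.56% and 0%. The first CpG of the same stretch, at 602357, was methylated on 31 of 31 V reads and 0 of 18 G reads in F1VG and on 82.1% and 9.09% in F1GV. From 602939 to 603477, neither allele fell below 42.9% at any CpG. Outside this part, some listed CpGs that were not members also differed between the alleles. At 381, 1148 and 1222 bp from the first CpG, V in F1VG was 80.9%, 67.9% and 81.0%. In F1GV it was 46.6%, 92.6% and 60.5%. G there was at 4.88%, 0% and 0% in F1VG and at 7.41%, 17.9% and 4% in F1GV. At 532 bp G was the higher allele in both libraries, and at 109 bp both alleles were at 0% in both. The 4 members called in both libraries lay at the 2 ends, but allelic differences were not limited to the ends.

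The other 3 patches of 3 CpGs lay on SCAFFOLD4, SCAFFOLD16 and SCAFFOLD31, that on SCAFFOLD16 at an end of its stretch. On SCAFFOLD4 at 3441610, 3441616 and 3441619, V reads were methylated at 95.7%, 91.3% and 100% in F1VG and G reads at 13.0%, 20.0% and 16%, and in F1GV V stood at 93.1% or more and G at 31.6% or less. At the start of the SCAFFOLD16 stretch from 3756673 to 3759190, V levels of 80% or more in both libraries faced G levels of 33.3% or less over 3 CpGs spread across 125 bp. In the SCAFFOLD31 stretch the 3 CpGs at 499849, 500059 and 500516 had V at 80.5% or more and G at 42.1% or less. The reverse was seen as a pair on SCAFFOLD7, where V had 3 of 34 and 0 of 32 methylated reads at 1901717 and 1901725 in F1VG against 20 of 21 and 21 of 22 for G, and 5 of 30 and 7 of 29 against 38 of 42 and 40 of 44 in F1GV.

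Of the 54 single CpGs, 6 differed by 80 points or more in both libraries, all with V higher. At 3400590 on SCAFFOLD16, for example, 10 of 10 V and 0 of 10 G reads were methylated in F1VG, and 21 of 24 and 0 of 12 in F1GV. In the same stretch 3402515 and 3402526 were also called in both libraries, with smaller differences. Whether the G allele carries a CpG at these positions was not examined.

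**Figure D5:**
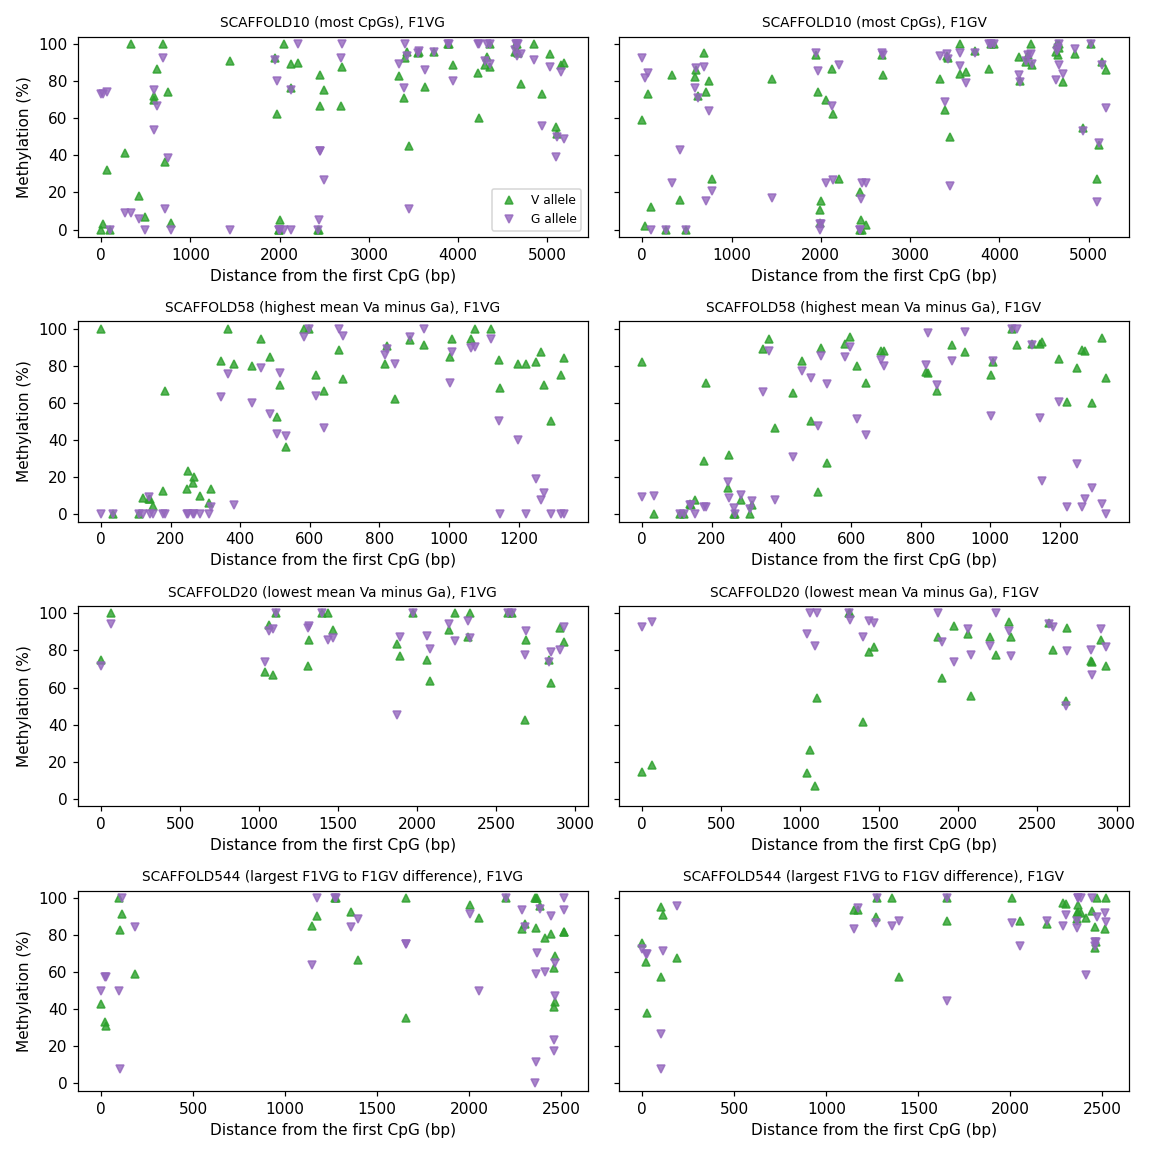
Methylation in percent of V (green triangles) and G (purple, inverted) reads at every listed CpG of 4 stretches, by distance in bp from the first CpG, in F1VG (left) and F1GV (right). On SCAFFOLD58 the G allele is near 0% at both ends in both libraries, on SCAFFOLD20 the V allele is at 6.67% to 26.1% at the 5 CpGs of the first 1090 bp in F1GV only, and on SCAFFOLD544 a few CpGs near the right end are low in F1VG only.

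The allelic difference of a CpG, like its level, resembled that of its nearest neighbours only. Va minus Ga of a CpG in F1VG and of its neighbour in F1GV correlated with r = 0.369 at the same CpG, 0.260 up to 20 bp, 0.090 at 20 to 40 bp, 0.082 at 40 to 60 bp, 0.042 at 60 to 80 bp and -0.052 at 80 to 100 bp (CpGs of at least 50%, 897 to 3455 points). For the total level of the same CpGs r was 0.217 up to 20 bp, 0.129 at 20 to 40 bp, 0.019 at 40 to 60 bp and -0.051 at 60 to 80 bp. Between the V level in F1VG and the G level in F1GV of the same CpG, that is between the maternal alleles of the 2 crosses, r was 0.352, below 0.471 for V in both libraries and 0.630 for G in both.

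The total levels of the 2 libraries were close. F1VG minus F1GV averaged 1.29 ± 3.41 points over the 142 stretches, from -12.2 to 9.42, and F1VG was higher in 95. The mean shift was 1.51 points at the other CpGs of at least 50%. Total levels of the stretches correlated between the libraries with r = 0.635 (rho 0.557, 142 stretches). By Fisher's exact test 14 stretches differed (9.86%, background 6.47%), 11 with F1VG higher, by 5.44 to 11.8 points in the summed level. Among single CpGs 207 of 3455 differed (5.99%, background 9.4%, other CpGs of at least 50% 4.53%), 118 of them (57.0%) higher in F1VG, compared with 46.8% of the 6791 tested CpGs that were called.

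The smallest adjusted p was that of a stretch on SCAFFOLD4 from 5223894 to 5225623 (0.000147, Fisher's exact test). Its summed total levels over 11 spaced CpGs were 78.7% in F1VG (75.3% to 81.8%) and 66.9% in F1GV (63.7% to 69.96%). Over all its 25 CpGs the mean total levels were closer, at 81.0% and 76.0%. The stretches on SCAFFOLD30 from 489327 to 491061 (summed levels 86.3% and 76.6%) and on SCAFFOLD5 from 2270969 to 2272921 (86.6% and 77.4%) followed, with adjusted p = 0.001 and 0.0015 by the same exact test. These 3 were picked for their p-values after the test. In contrast, the 5 stretches with the largest difference of mean levels were not called by the spaced test (adjusted p from 0.20 to 1.0, Fisher's exact test). In these, 2 to 5 CpGs each were called between the libraries.

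The largest such difference was on SCAFFOLD544 from 136099 to 138616, where 30 CpGs averaged 73.1% in F1VG and 85.3% in F1GV. At 138561, 138564 and 138567, which span 7 bp and share reads, the total level was 19.1%, 22.1% and 47.9% in F1VG and 82.9%, 77.1% and 91.4% in F1GV. At 138564 the total in F1VG lay below both allelic levels (43.8% for V and 47.1% for G), which is possible because reads not assigned to an allele count in the total only. About 100 bp to the left, at 138458 and 138460, the G allele was at 0% (0 of 17 reads) and 11.8% in F1VG and at 84.0% and 87.5% in F1GV, with V at 88.5% or more in both. On SCAFFOLD127 from 182608 to 183590 the F1VG library was lower by 7.70 points, and there too the G allele was lower in F1VG, for instance 12.5% against 90.9% at 182821. The stretch on SCAFFOLD136 from 4260 to 6546 was lower in F1VG by 7.69 points, with V at 0% in F1VG and 92.0% in F1GV at 6008. The one on SCAFFOLD126 from 134451 to 137146 was higher in F1VG, by 7.59 points.

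On SCAFFOLD20 from 455671 to 458602 the V allele was low in F1GV over 1 end of the stretch. At the CpGs 455671, 455735, 456710, 456733 and 456761, V levels in F1GV were 14.3%, 18.2%, 13.8%, 26.1% and 6.67%, on 15 to 29 reads each, and G levels were 82.4% to 100%. All 5 were called in F1GV. In F1VG the same CpGs had V levels of 66.7% to 100% and G levels of 71.4% to 94.4%, and none was called. At 456776 V in F1GV was 54.5%, with G at 100%. At the next CpGs, 1306 and 1316 bp from the first, V in F1GV was 100%. At 457067 it was 41.2%, with G at 87.5%, so the low V levels were not continuous. From 457105 to the end, V in F1GV was 52.8% or more. Mean Va minus Ga was -2.36 ± 14.3 points in F1VG and -19.6 ± 30.7 in F1GV. The test of the difference between the libraries called 3 of these CpGs (adjusted p = 0.018, 0.0152 and 0.017 at 455671, 456710 and 456733, binomial likelihood ratio test) but not the stretch (adjusted p = 0.517). Over the spaced CpGs of the stretch V was below G in both libraries, at 72.4% and 82.3% in F1VG and 66.7% and 84.2% in F1GV. Fisher's exact test of V against G called the stretch in F1GV (adjusted p = 4.69e-05) but not in F1VG (adjusted p = 0.0832).

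Whether the allelic difference itself changed between the libraries was tested by the allele by cross term of a binomial logistic model fitted to the reads (likelihood ratio test). It was called for 8 stretches (5.63%, background 4.34%) and for 115 CpGs (3.33%, background 4.73%). Over all 142 stretches the absolute change of mean Va minus Ga had a median of 4.21 points and reached 17.5. On SCAFFOLD28 from 1706049 to 1709467, the V and G levels of the spaced CpGs were 71.0% and 80.9% in F1VG and 82.0% and 69.5% in F1GV, so that over these 10 CpGs the higher allele was G in one library and V in the other (adjusted p = 0.00335, binomial model). Over all 22 CpGs of the stretch V was the higher allele in both, by 2.62 and 14.48 points on average. On SCAFFOLD7 from 1901420 to 1902652 they were 67.0% and 85.3%, then 80.4% and 79.4% (adjusted p = 0.0207, binomial model), and over all CpGs mean Va minus Ga was -16.4 and -5.45 points. The stretches on SCAFFOLD16 from 3400285 to 3402658 and on SCAFFOLD47 from 89278 to 90238 had G above V by 3.32 and 6.53 points in F1VG and below it by 16.4 and 16.04 points in F1GV (adjusted p = 0.0109 and 0.0176, binomial model). Over all their CpGs V was above G in both libraries, by 6.33 and 16.7 points on SCAFFOLD16 and by 2.45 and 8.43 on SCAFFOLD47. In all 8 stretches mean Va minus Ga over all CpGs had 1 sign in both libraries, so at the level of the stretch a change of the higher allele was seen over the spaced CpGs only.

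On SCAFFOLD4 from 3441241 to 3442269 the term of the binomial model was called with adjusted p = 0.00409, while over all CpGs V was the higher allele in both libraries, by 10.3 and 15.9 points. The first CpG stood out. There V was methylated on 5 of 28 reads and G on 20 of 23 in F1VG, but V on 31 of 34 and G on 24 of 37 in F1GV (adjusted p = 9.49e-06 at this CpG, binomial model). Spaced CpGs are taken from the left end, so the reads of this first CpG were also counted in the test of its stretch. The 2 CpGs whose alleles were called in opposite directions were of the same form. At 1901420, the first CpG of the SCAFFOLD7 stretch, V and G were at 33.3% and 71.4% in F1VG and at 82.8% and 41.9% in F1GV (adjusted p = 0.0013 for the change, binomial model). Its reads, too, were counted in the test of its stretch, so CpG and stretch are not separate results. At 234345 in the SCAFFOLD204 stretch they were at 46.4% and 77.8%, then 78.4% and 30.8% (adjusted p = 0.000394, binomial model). In both cases the allele inherited from the father was the more methylated in each library, on 24 to 54 reads per allele and with 1 library per cross. Of all CpGs called in both libraries within the long stretches, these 2 of 84 changed direction with the cross. The share of such changes among all tested CpGs is not given here, so 2 of 84 was not compared with a background.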

How the data were processed

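The deposited values are counts: for each CpG, the methylated and unmethylated reads of the V allele, the G allele and all reads together. According to the methods, the authors trimmed single-end WGBS-seq reads (Trimmomatic), aligned them with BWA to converted Nv and Ng genomes (v1.0), assigned reads to an allele by fixed differences between the species, and kept CpGs with at least 8 reads per allele. Reads without such a difference count in the total only. How the stated correction of mapping bias toward Nv was made, and how variants at the CpG itself were treated, is not given in the sources used here.

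Levels were computed in Python 3.11.15 with pandas 2.3.3 from CpGs listed in both files. Runs were built as described above, with counts summed over both libraries. Per CpG, Fisher's exact test compared V with G and F1VG with F1GV, and a likelihood ratio test gave the allele by cross term. The exact test was two-sided and computed with Numba 0.67.0, and its p-values were checked against SciPy 1.17.1. These were adjusted by Benjamini-Hochberg over 72225 CpGs with a level of at least 10%, pooled over V and G reads of both libraries. Per stretch, counts were summed over CpGs at least 110 bp apart, taken from the left end, and adjusted over 5548 stretches. The routines were tested on simulated counts first. Wilson 95% intervals cover counting error only, and reads were not tied to molecules. Their median width for the total level of a long stretch was 6.76 points in F1VG and 6.42 in F1GV.

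Stretches were named by rule: the 10 with the most CpGs, the 5 highest and 5 lowest in mean Va minus Ga, the 5 with the largest difference in total level, and the 5 called for the allele by cross term with the largest change. Others named in the text were chosen after their values were seen. The rule for the stretches, the tests and the lists were chosen with earlier results of these data known. Alternatives changed the level, gap and CpG minimum, the read minimum, the filters, the spacing and the threshold.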

Additional observations from a re-analysis of the deposited data

Results flagged for a closer look

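For 8 long stretches the allelic difference itself differed between the F1VG and F1GV libraries (allele by cross term of a binomial model, spaced CpGs, adjusted over all stretches). Mean Va minus Ga over all CpGs, F1VG minus F1GV, was -11.9 points on SCAFFOLD28 from 1706049 to 1709467, -10.9 on SCAFFOLD7 from 1901420 to 1902652, -10.4 on SCAFFOLD16 from 3400285 to 3402658, -5.98 on SCAFFOLD47 from 89278 to 90238 and -5.55 on SCAFFOLD4 from 3441241 to 3442269. It was -5.16 on SCAFFOLD9 from 3196061 to 3197333, -4.89 on SCAFFOLD16 from 279226 to 284502 and 3.15 on SCAFFOLD4 from 5223894 to 5225623. On SCAFFOLD9 the spaced V and G levels were 76.2% and 78.7% in F1VG and 86.0% and 68.8% in F1GV (adjusted p = 0.0475), on the second SCAFFOLD16 stretch 75.3% and 87.8%, then 84.8% and 82.1% (adjusted p = 0.0207), and on the last stretch 83.1% and 74.3%, then 58.1% and 70.6% (adjusted p = 0.00787, all 3 from the binomial model). Over all CpGs, mean Va minus Ga in F1VG and F1GV was 1.73 and 6.89 points on SCAFFOLD9, -6.32 and -1.43 on the second SCAFFOLD16 stretch and 8.73 and 5.58 on the last. It had 1 sign in both libraries in all 8 stretches. Among the long stretches, the last of these also had the smallest adjusted p for the total level between the libraries. Each cross had 1 library, so a change between crosses and a change between libraries cannot be told apart.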

How the results depend on the processing

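The number of long stretches depended on the definition. It was 222 instead of 142 with CpGs of at least 40%, 92 with gaps of at most 500 bp, 355 with gaps of at most 2000 bp, 464 with 15 or more CpGs and 20 with 30 or more. The median span became 4402 bp with gaps of at most 2000 bp, and the median level 77.3% with CpGs of at least 40%. The correlation at 10 to 50 bp was 0.126 with CpGs of at least 50% only and 0.755 on raw levels, which include differences between stretches.

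Without the filter at a level of 10%, the adjustment ran over many more unmethylated CpGs, and 88 CpGs were called for V against G in F1VG, 103 in F1GV, 31 between libraries and 13 for the allele by cross term. At an adjusted p under 0.01 these counts were 160, 182, 84 and 39. With at least 16 reads per allele, 1996 instead of 3455 member CpGs were tested. Of these 209 were called in F1VG, 179 in F1GV, 133 between libraries and 101 for the allele by cross term. The set tested was smaller, so a lower count is not a lower share. Stretch calls at an adjusted p under 0.01 were 14, 20, 6 and 3. With a minimum difference of 20 points in Fisher's exact test on the summed counts, 0 stretches were called in F1VG, 0 in F1GV and 0 between libraries, against 25, 33 and 14 without it. With CpGs at least 200 bp apart, 8 stretches were called between libraries, on fewer reads. Of 63 alternatives 36 kept the value within the limits set. No paired analysis was possible because each cross had 1 library, and for the same reason no replicate could be left out.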
